A study of Mus musculus with 2 samples.

Results

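The peaks described here lie inside the introns of the longest protein-coding genes of the mouse, in maps of open chromatin from the embryonic neural tube. DNase-seq treats nuclei with the nuclease DNase I and reads the fragment ends, which pile up where DNA is not packed in nucleosomes. A peak belonged to the set when it lay on chromosomes 1 to 19, when its centre fell inside a protein-coding gene of at least 300 kb and outside all exons of that gene, and when it was over 1 kb from every protein-coding transcription start site (TSS). This rule uses position only, not the strength of a peak. It found 19729 of the 194486 autosomal peaks of replicate 1 (10.1%) and 13099 of the 150286 autosomal peaks of replicate 2 (8.72%). The genes of this length numbered 541, or 2.60% of 20807 autosomal protein-coding genes, and their eligible intron sequence made up 300 Mb, or 12.5% of the sequenced autosomes.

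The tissue was whole neural tube, from which the brain and spinal cord form, of healthy B6NCrl mouse embryos aged 11.5 days, with both sexes pooled and no treatment or mutant allele named. The labels give 1 group of 2 biological replicates that share a donor label, and they name an additional sequencer model for replicate 2. No test across samples can be run on 1 group of 2 libraries, so values are given per library or as the mean of both, and an SD measures only the spread between these 2 samples. In tissue made of many cell types, a site open in few cells and a site opened less often in all of them cannot be told apart. Promoter peaks were present in both libraries at 6 of 6 markers of neural progenitors (Sox1, Sox2, Pax6, Nes, Msi1, Fabp7) and at 5 of 5 markers of neurons. They were present at 3 and 4 of 5 endothelial markers, at 1 of 3 erythroid markers, and at 0 of 4 myeloid, 0 of 3 liver and 0 of 4 striated muscle markers. The part of endothelial and blood cells in the intronic peaks was not tested.

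Very long genes owe their length to their introns, and many of them encode adhesion molecules, receptors and channels of neurons or regulators of transcription. Introns of developmental genes are known to hold enhancers, short stretches bound by transcription factors that raise transcription of a promoter at a distance. The promoter served need not be that of the host, since enhancers in introns of Fto, an RNA demethylase gene, are known to act on the neighbouring homeobox genes Irx3 and Irx5.

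The sequences of some of the peaks are printed first, because they show the letters of the strongest of these sites and of the strongest site in 2 of the densest genes. Each is 150 bp from the plus strand of GRCm38 (mm10), at the position given for replicate 1, with capitals for matches to a motif on either strand. The first 4 are among the strongest peaks found in both libraries. They lie in Msra, a methionine sulfoxide reductase, at chr14:64440516-64440665, in Nfib, a transcription factor of neural development, at chr4:82513216-82513365, in Rere, a nuclear receptor coregulator, at chr4:150371756-150371905, and in Maml3, a coactivator of Notch signalling, at chr3:52102196-52102345.
Msra: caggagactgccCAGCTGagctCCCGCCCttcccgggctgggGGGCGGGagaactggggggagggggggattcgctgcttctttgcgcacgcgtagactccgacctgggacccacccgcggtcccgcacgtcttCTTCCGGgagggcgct
Nfib: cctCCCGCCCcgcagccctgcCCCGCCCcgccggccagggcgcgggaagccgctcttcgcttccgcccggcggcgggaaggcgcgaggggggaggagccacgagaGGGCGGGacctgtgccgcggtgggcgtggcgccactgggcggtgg
Rere: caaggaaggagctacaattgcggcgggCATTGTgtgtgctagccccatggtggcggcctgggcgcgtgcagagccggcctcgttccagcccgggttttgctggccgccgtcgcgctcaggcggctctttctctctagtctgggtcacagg
Maml3: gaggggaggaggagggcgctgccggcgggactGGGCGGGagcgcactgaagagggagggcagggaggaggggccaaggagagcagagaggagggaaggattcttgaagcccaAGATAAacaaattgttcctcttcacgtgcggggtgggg
The next 2 are the strongest shared peaks of Gse1 and Fto, which are among the 3 genes with the highest density. They lie in the histone deacetylase complex gene Gse1 at chr8:120276496-120276645 and in Fto at chr8:91378896-91379045.
Gse1: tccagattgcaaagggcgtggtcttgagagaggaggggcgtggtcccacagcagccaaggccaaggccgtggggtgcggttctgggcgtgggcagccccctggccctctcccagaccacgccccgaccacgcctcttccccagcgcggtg
Fto: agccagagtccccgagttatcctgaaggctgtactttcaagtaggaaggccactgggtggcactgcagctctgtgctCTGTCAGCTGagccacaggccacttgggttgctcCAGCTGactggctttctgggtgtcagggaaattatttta
The Msra peak holds a GGGCGGG box on each strand, the Nfib peak holds 3 of them and the Maml3 peak 1, which is the site of the Sp and Klf zinc finger proteins of GC-rich promoters. The Msra peak also holds CAGCTG, an E-box of proneural factors, and CCGGAAG, an ETS site. The Fto peak holds 2 matches to CAGCTG and 1 to TGACAG, the core of Meis and Tgif proteins, which overlaps the first of them. The Gse1 peak held none of the 21 motifs searched. GC content was 71.3%, 82%, 66% and 64% in the Msra, Nfib, Rere and Maml3 peaks. At 70% the Gse1 peak lay within this range, and at 54% the Fto peak lay below it. The Msra peak lay 15.3 kb from the nearest coding TSS, the Nfib peak 7.52 kb, the Rere peak 34.6 kb, the Maml3 peak 2.81 kb, the Gse1 peak 48.1 kb and the Fto peak 11.6 kb. Of these peaks, only that of Nfib was not assigned to an intron of the longest transcript of its gene. The peak that ranked highest of all lay 59.6 kb inside the first intron of Gm42906, at percentile 99.8 of the scores of replicate 1 and 99.9 of those of replicate 2.

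Peaks were sparser in the introns of very long genes than in those of shorter genes. Replicate 1 had 6.57 peaks per 100 kb of eligible intron and replicate 2 had 4.37, which gives a mean of 5.47 ± 1.56 (SD, n = 2). Introns of shorter genes held 8.45 and 6.39 per 100 kb, so that the ratio was 0.778 and 0.683, with a mean of 0.731 ± 0.0672 (SD, n = 2). Both libraries lay below 1, and the distance from 1 was larger than the spread between them. Sequence outside coding genes and over 1 kb from their TSSs held 5.98 and 4.38 peaks per 100 kb, and here the ratio was 1.10 and 0.997, which differ from 1 by no more than the spread between libraries allows (1.05 ± 0.0730, SD, n = 2).

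The density was lower the longer the gene from 300 kb upward. The 11129 genes under 20 kb had the highest density of all classes, 10.3 and 8.47 per 100 kb (mean 9.41). Genes of 20 to 50 kb, 50 to 100 kb, 100 to 200 kb and 200 to 300 kb had mean densities of 7.09, 7.04, 7.47 and 7.34 per 100 kb, nearly level. The 323 genes of 300 to 500 kb had 6.31 ± 1.70, the 163 genes of 500 to 1000 kb had 5.03 ± 1.53 and the 55 genes over 1000 kb had 4.78 ± 1.39 (SD, n = 2). Each step down from the class of 200 to 300 kb was smaller than the SD between libraries and went the same way in both of them. Among the longest genes, Ptprd, a receptor phosphatase of 2271 kb, had 74 and 33 peaks, Cntnap2, a contactin-associated protein of 2245 kb, had 66 and 27, and Lsamp, an adhesion molecule of 2197 kb, had 84 and 45. These 3 genes had means of 2.39, 2.09 and 2.96 per 100 kb, below the median gene. At the threshold itself, the 3 shortest genes inside the set were Kcnq3 (300.256 kb, a potassium channel), Pam and Nxph1, at means of 5.43, 6.20 and 6.10 peaks per 100 kb. The 3 longest genes outside it were Jazf1 (299.835 kb, a zinc finger gene), Akap13 and Atp2b2, at 7.76, 3.99 and 10.5, so that their range took in that of the genes inside.

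**Figure D1:**
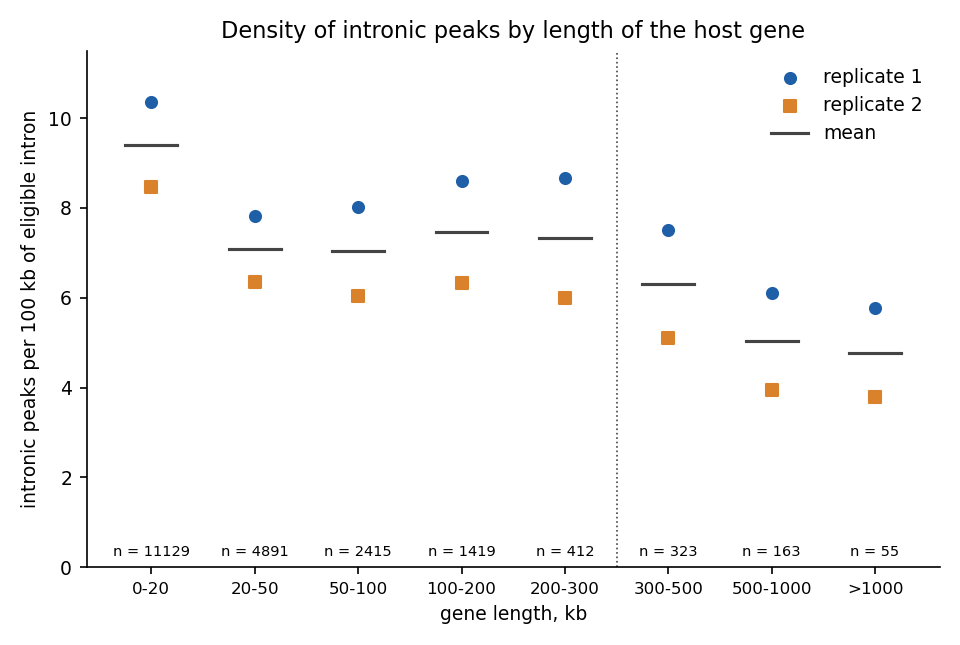
Peaks per 100 kb of eligible intron (vertical axis) for 8 classes of gene length (horizontal axis), with a point for each library, a bar for their mean and the number of genes at the foot. Right of the dotted line at 300 kb the means step down from 6.31 to 4.78.

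Long introns are poor in G and C, and this composition moved with the density. Of the eligible intron of very long genes, 4.85% lay in 10 kb windows of at least 48% GC, against 18.1% of the introns of shorter genes. The density in long introns was 1.75 ± 1.07 per 100 kb in windows under 36% GC, 4.56 ± 1.68 at 40 to 42% and 16.8 ± 1.75 at 48% or more (SD, n = 2). Within windows of the same GC content, long introns were not sparser than those of shorter genes in the range from 40% upward: at 42 to 44% they held 8.48 and 5.53 peaks per 100 kb against 7.12 and 4.59, and at 46 to 48% they held 13.1 and 10.8 against 11.1 and 8.85. Below 40%, long introns were sparser in replicate 2 in every class. They held 2.51 and 0.986 against 2.50 and 1.36 under 36%, and 3.05 and 1.46 against 3.18 and 1.77 at 36 to 38%. At 38 to 40% they held 4.03 and 2.14 against 3.82 and 2.23. These classes made up 8.14%, 16.1% and 21.5% of the long introns. If each class of window had the weight it has in shorter genes, the long introns would hold 9.56 and 7.14 per 100 kb, and the ratio to shorter genes would be 1.13 and 1.12, a mean of 1.12 ± 0.0103 (SD, n = 2), on the other side of 1. Against sequence outside coding genes the ratio at equal GC content was 1.14 and 1.05. These weighted values were chosen after the data were seen, and the windows include the peaks themselves.

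**Figure D2:**
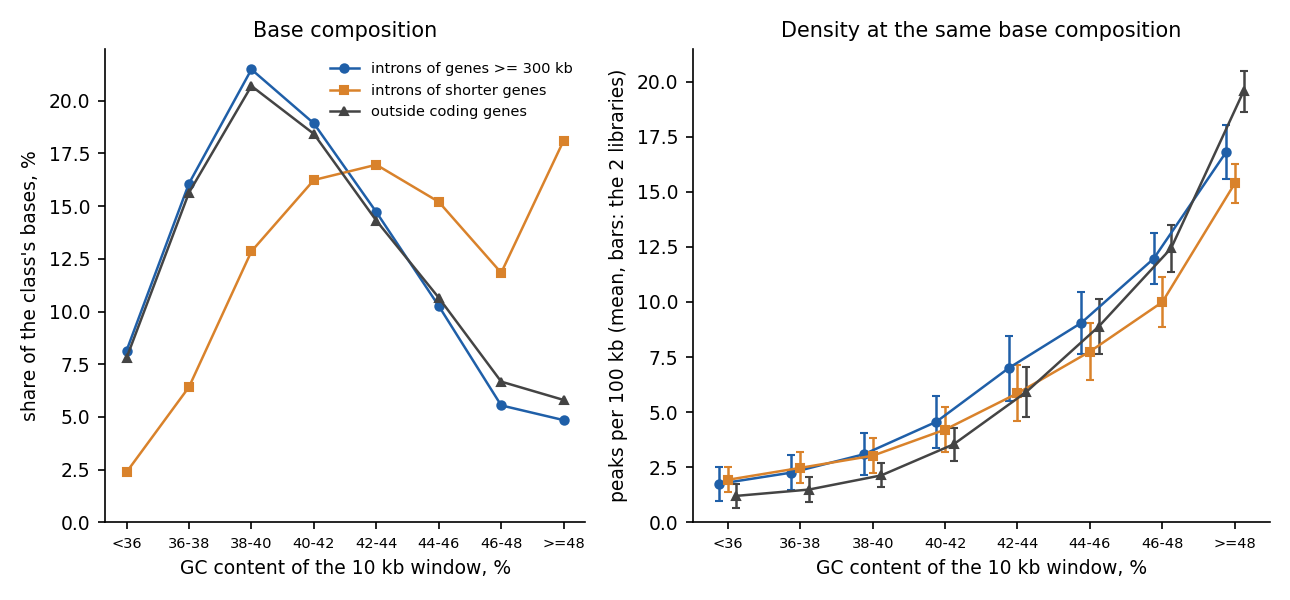
Left, share of the bases of each class (vertical axis, %) by GC content of 10 kb windows (horizontal axis, %); right, peaks per 100 kb in the same windows, as the mean with bars that reach to the 2 libraries. Long introns follow the sequence outside genes in composition, and their density runs from 1.75 to 16.8 per 100 kb over the range of GC content.

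Single genes differed far more than the classes. Density per gene, as the mean of both libraries, ran from 0 to 38.5 peaks per 100 kb with a median of 4.86, and the middle 50% of genes lay between 2.82 and 7.66. The 54 genes with the most peaks in each library held 29.3% of the gene and peak pairs of replicate 1 and 35.6% of those of replicate 2. Replicate 1 had more peaks than replicate 2 in 497 genes, fewer in 27 and as many in 17. Its list was also the larger over all autosomes, with 194486 peaks against 150286. The order of genes was similar in both libraries, with Spearman's rho 0.910 and Pearson's r 0.888 over 541 genes. Genes are not independent replicates, and their order also followed GC content (rho 0.763) and, inversely, the share of repeats (rho -0.709). With gene length itself rho was -0.207.

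**Figure D3:**
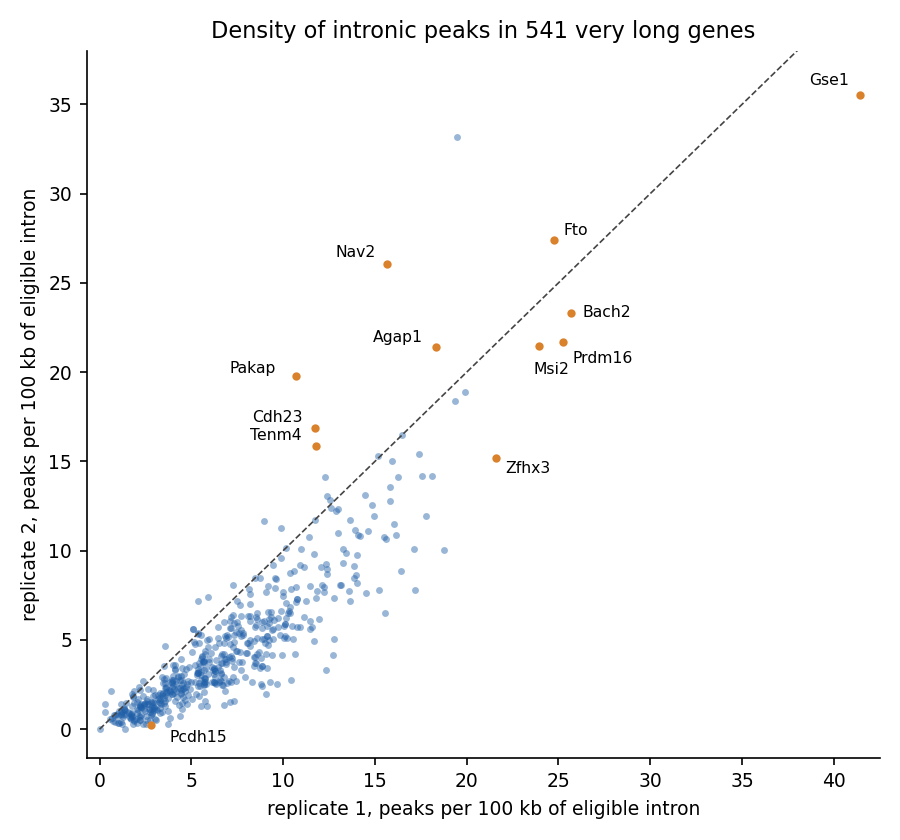
Peaks per 100 kb of eligible intron in replicate 1 (horizontal axis) and replicate 2 (vertical axis), 1 point per gene, with some of the genes named in the text in orange and the line of equal density dashed. Most genes lie below the line, Gse1 stands at 41.4 and 35.5, and Nav2 and Pakap lie above the line.

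Gse1 (chr8:120228456-120581390, plus strand) had the highest density, with 140 peaks in replicate 1 and 120 in replicate 2 over 353 kb, or 41.4 and 35.5 per 100 kb. It also had strong peaks, since 17 and 11 of them were in the top 10% of their list by score. Of all long-intron peaks, 1.78% and 1.09% were. The longest stretch without a peak of the set in Gse1 was 16.6 kb. Its place in the set rests on an annotated span, since its longest transcript in the CCDS set of reviewed coding sequences spans 92.9 kb. Gse1 is GC-rich for a gene of this length (54.2%). In windows of 48% GC or more, the highest class used, very long genes as a whole held 16.8 per 100 kb, and Gse1 held 2.30 and 2.28 times the density of this class in replicates 1 and 2. The class has no upper limit, so this is not a comparison at the GC content of Gse1 itself. Bach2, a leucine zipper repressor of transcription, had 86 and 78 peaks (25.7 and 23.3 per 100 kb) and held 2.69 and 3.39 times the density at its GC content. Prdm16, a zinc finger regulator of neural stem cells, had 78 and 67 peaks, 25.3 and 21.7 per 100 kb. Msi2, the RNA-binding protein Musashi of neural progenitors, had 88 and 79 peaks, 23.9 and 21.5 per 100 kb. In each of these 4 genes the libraries differed by less than the distance to the median gene.

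Fto had 84 and 93 peaks (24.8 and 27.4 per 100 kb), none of them in the top 10% by score. Few were due there, since 1.78% and 1.09% of all long-intron peaks were in the top 10%. Maml3 had 79 and 75 peaks (19.4 and 18.4 per 100 kb), of which 12 and 10 were in the top 10%. Density and score went opposite ways in this pair. Fto was the denser in both libraries, while the median score percentile was 62.2 and 52.6 in Maml3 against 50.2 and 36.8 in Fto. Zfhx3, a zinc finger homeobox gene of 1019 kb, had 215 and 151 peaks, 21.6 and 15.2 per 100 kb, without a stretch over 39.96 kb that lacked a peak. Agap1 (a GTPase-activating protein), Ttc28 and the zinc transporter gene Slc39a11, at means of 19.9, 19.4 and 16.5 per 100 kb, are also among the 12 densest genes, as is Nav2. By number of peaks the leaders were Gm20388 (737 and 654), Fgfr2 (381 and 280), Zfhx3, Lrmda (164 and 155) and Auts2 (132 and 152), a regulator of neuronal development.

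The 2 largest counts also rest on long annotated spans. Gm20388 spans 4435 kb of chromosome 8 with 71 other coding genes inside, among them Gse1, and has no transcript in the CCDS set. Fgfr2, a receptor for fibroblast growth factors, spans 2961 kb in this annotation with 29 coding genes inside, while its longest CCDS transcript spans 104 kb. Of the 541 genes, 470 have a CCDS transcript of at least 300 kb and 71 do not, among them Nfib, Auts2, Iqsec1, Ksr2, Pakap, Gm42906, Prr16 and Skint5 of the genes named here. Over the 470 genes with such a transcript alone, the density was 6.24 and 4.05 per 100 kb and the ratio to shorter genes 0.738 and 0.632. A peak inside more than 1 very long gene, of which there were 272 and 227, was counted once in the pooled values and for each host in values by gene.

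At the other end, Skint6 (chr4:112804616-113286973, minus strand) had no peak in either library over 476 kb of eligible intron. Its neighbour Skint5 had 3 in each, 0.581 per 100 kb, with median score percentiles of 1.08 and 4.10. Both belong to a family of skin and thymus genes, and neither had a promoter peak. Repeats made up 47.9% of the eligible intron of Skint6 and 47.0% of that of Skint5. The median among the 54 sparsest genes was 37.4%. A promoter peak in both libraries was present in 509 of all 541 very long genes and in the other 10 of the 12 sparsest. Among them Klhl1, an actin-binding protein of neurons, had 3 and 2 peaks, the splicing regulator Khdrbs2 had 4 and 2, Xkr4 had 3 and 3, and Itgbl1 had 1 and 3. Luzp2 had 6 and 0, so that 1 gene lacked peaks in replicate 1 and 2 genes lacked them in replicate 2. Gabrg3, a subunit of the GABA-A receptor, had 8 and 2 peaks over 671 kb, and Cntn4, a contactin of growing axons, had 12 and 4 over 1022 kb. Prr16 had 3 and 1 peaks, Zfp804b 6 and 2, and the follistatin-like gene Fstl5 had 5 in each library. None of the 12 sparsest genes had a peak in the top 10% by score. With so few peaks hardly any were due there, since 1.78% and 1.09% of all long-intron peaks were in the top 10%.

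Median density was higher in genes with a promoter peak in both libraries than in genes with none, but not in order of the number of libraries. The 509 genes with a promoter peak in both libraries had a median density of 6.29 in replicate 1 and 3.54 in replicate 2, against 5.07 and 2.23 for the 26 genes with none. The 6 genes with a promoter peak in 1 library stood at 5.45 and 4.07, between these groups in replicate 1 and above both in replicate 2. The ranges overlapped widely, from 0.610 to 38.5 with a promoter peak in both and from 0 to 14.3 with none, and Cdh23, a cadherin of hair cells, stood at 14.3 without a promoter peak. Long stretches without a peak of the set in either library occurred in open genes too. Peaks within 1 kb of a coding TSS or in exons of the gene were not counted here, so such a stretch can hold them. The longest stretch exceeded 100 kb in 145 genes, and it reached 471 kb (chr6:110785811-111257250) in Grm7, a metabotropic glutamate receptor with a promoter peak in both libraries, and 411 kb in Csmd3.

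Regulators of transcription and chromatin were the densest of the 12 lists of genes. The 36 very long genes on this list had 11.8 and 9.12 peaks per 100 kb (mean 10.5 ± 1.91, SD, n = 2) and a median gene at 9.54, against 4.86 over all 541 genes. Of the 36, 31 were above that median and 5 were not. All 36 had a promoter peak in both libraries, as did 509 of all 541 very long genes. Prdm16 and Maml3 were among its 3 densest genes, and Zfpm2, the thyroid hormone receptor Thrb and the mineralocorticoid receptor Nr3c2 closed it. These 3 had 4.56, 3.28 and 3.28 in replicate 1 and 1.82, 1.64 and 1.19 in replicate 2. The density that very long genes as a whole had at the GC content of this list was 7.23, and the list held 1.40 times this density in replicate 1 and 1.52 times in replicate 2, with 28 of 36 genes above 1, whereas 232 of all 541 genes were.

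**Figure D4:**
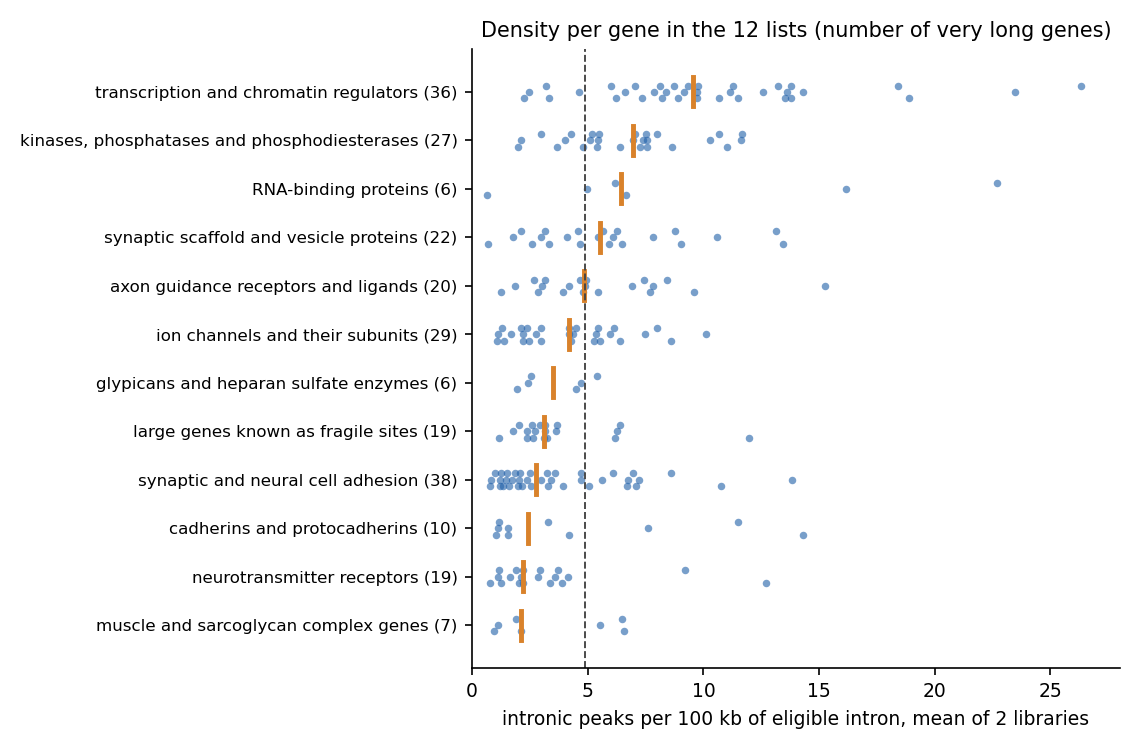
Mean density of intronic peaks per 100 kb (horizontal axis) of each very long gene in the 12 lists (vertical axis, number of genes in parentheses), with an orange bar for the median of the list and a dashed line for the median of all 541 genes, 4.86. The lists run from a median of 2.11 for muscle genes to 9.54 for regulators of transcription and chromatin.

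Signalling enzymes and RNA-binding proteins lay above the median gene as well. Kinases, phosphatases and phosphodiesterases had a median of 6.95 per 100 kb, with 20 of 27 genes above 4.86, led by Ksr2 (a scaffold of Ras signalling, 11.7), Fgfr2 (11.6) and Prkca. Prkca, a protein kinase C, had 15.6 in replicate 1 and 6.52 in replicate 2. At equal GC content this list stood at 1.01 and 0.894 times the density of very long genes. Of 6 RNA-binding proteins 5 were above the median gene, from Msi2 and Rbfox3 (16.2) down to Khdrbs2 (0.635), with ratios of 1.10 and 1.10 at equal GC content. Synaptic scaffold and vesicle proteins had a median of 5.55 (7.06 and 3.55 by library), with 12 of 22 above, led by Sorcs2 (13.5) and Iqsec1 (13.1). For their GC content they stood below very long genes as a whole, at 0.969 and 0.883 times the density, with 9 of 22 genes above 1.

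Genes of the neuronal surface were sparser. Of 19 neurotransmitter receptors 17 lay at or below the median gene, with a list median of 2.20 per 100 kb, and the 2 above were Grik4, a kainate receptor subunit (12.7), and Gabbr2, a GABA-B receptor subunit (9.20). All 19 had a promoter peak in both libraries, as did 509 of all 541 very long genes. Of 38 genes of synaptic and neural adhesion 27 lay at or below the median, with a list median of 2.75, from Tenm4, a teneurin (13.8), to Cntn4 (0.793). Of 10 cadherins and protocadherins 7 lay at or below it, with Cdh23 and Cdh4 (11.5) high and Cdh18 (1.85 and 0.436), Pcdh7 (1.24 and 0.991) and Cdh8 (1.04 in each) low. Ion channels had a median of 4.18 with 18 of 29 at or below the median gene. At equal GC content the receptors stood at 0.659 and 0.651 times the density of very long genes, the cadherins at 0.772 and 0.609, the channels at 0.767 and 0.732, and the adhesion genes at 0.864 and 0.849.

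Axon guidance genes had a mean density near that of the median gene, with the libraries on opposite sides of it, and were above it for their composition. Their median was 6.75 per 100 kb in replicate 1, where that of all genes was 6.23, and 2.68 in replicate 2, where it was 3.48. As the mean of both it was 4.83, with 10 of 20 above 4.86, from Slit3, a secreted repellent (15.2), to Nrg3, a ligand of ErbB receptors (1.23). At 38.8% their GC content was low, and they held 1.33 and 1.26 times the density at equal GC content, with 13 of 20 genes above 1. The 6 glypican and heparan sulfate genes had a median of 3.52 (4.99 and 1.82 by library), the 19 fragile-site genes 3.10 (3.83 and 2.00) and the 7 muscle genes 2.11 (3.07 and 1.15), with 1, 4 and 3 genes above 4.86. Wwox was the highest of the fragile-site genes at 12.97 and 10.97 and Lrp1b the lowest at 1.87 and 0.493.

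Taking each gene against its own GC content changed which genes led. Dach1 (chr14:97786853-98169765, minus strand), a transcriptional corepressor of retina and brain development, ranked first, with 48 and 19 peaks where its GC content of 35.1% went with 10.1 and 4.28, a ratio of 4.75 and 4.44. Epha3, an ephrin receptor, stood at 3.07 and 3.62, and Bach2 followed. The dynamin gene Dnm3 had ratios of 2.97 and 2.60, the transcription factor gene Nfia 2.57 and 2.98, Fto 2.24 and 3.28, Lrba 2.49 and 3.03, the transcription factor gene Sox6 2.68 and 2.81, and Unc5c, a netrin receptor, 2.37 and 3.10. These genes are among the 10 with the highest mean ratios, and each of those named was above 2 in both libraries. Naming by this ratio was decided after the values were seen, as was the naming of Grm7 and Csmd3. By contrast Prdm16 stood at 1.40 and 1.39, Slc39a11 at 1.00 and 1.18 and Rbfox3 at 1.00 and 0.913, so that their densities were closer to those of very long genes in the same classes of GC content, which for Prdm16 and Rbfox3 is the class of 48% or more alone. At the low end were Gabrg3 (0.220 and 0.0917) and Skint6 at 0. The ratio had a rho of 0.782 between libraries over 541 genes.

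Peaks were spread along the whole length of the genes, with the highest density in the first few kb. Between 1 and 5 kb from the gene's start the density was 28.7 per 100 kb in replicate 1 and 19.2 in replicate 2, and between 5 and 20 kb it was 5.54 and 3.93. Beyond that it stayed between 4.88 and 5.76 as the mean of both libraries, out to over 1000 kb. In 10 equal parts of gene length from the 5′ to the 3′ end the mean density lay between 5.13 and 6.31, highest in the last part in both libraries (7.36 and 5.26). The first intron of the longest transcript held 6.95 and 4.72 per 100 kb and the other introns 6.52 and 4.32. The median peak was 80.4 kb from the nearest coding TSS in replicate 1 and 75.7 kb in replicate 2, and for 74.8% and 73.1% of peaks that TSS belonged to the host gene. Over 100 kb from every coding TSS lay 43.03% and 41.31% of the peaks. Neighbouring peaks of a gene were a median of 5.18 and 6.54 kb apart, with 32.0% and 29.5% of the spacings under 1 kb.

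The share of intronic peaks found in the other library lay below that of all autosomal peaks for replicate 1 and near it for replicate 2. From replicate 1, 8590 (43.5%) overlapped a peak of replicate 2 by at least 1 bp, where 52.7% of all autosomal peaks did. From replicate 2, 8733 (66.7%) were found in replicate 1, where 69.4% of all were. In introns of shorter genes the shares were 49.4% and 66.4%, and outside genes 47.98% and 66.9%, so that the share from replicate 1 was lower in long introns and that from replicate 2 was near both. In replicate 1 the share was highest for the densest genes, at 55.9% in the 55 richest and 27.4% in the 54 sparsest. In replicate 2 the richest had 64.7%, below the 70.5% of the 54 genes next in density, and the sparsest had 52.0%.

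The scores were low, with a median near that of peaks outside genes. The score, a whole number of at most 150 which no source used here explains, was used only as a rank within a library. The median peak in a long intron stood at percentile 40.4 in replicate 1 and 39.6 in replicate 2, against 46.7 and 44.6 in introns of shorter genes and 84.0 and 83.4 within 1 kb of a coding TSS. In the top 10% of each list were 352 (1.78%) and 143 (1.09%) of the peaks, against 3.22% and 2.06% of those in shorter introns and 3.98% and 2.94% of those outside genes. At equal rank the sharing was like that of other peaks over 1 kb from a TSS. Between percentiles 40 and 50, 41.1% of long-intron peaks of replicate 1 were shared and 43.3% of the others, and in replicate 2 79.0% and 76.3%. Every peak of the set overlapped a hotspot of its own library, a broader region called by the authors, as did every other autosomal peak outside long introns. Hotspots covered 2.06% and 1.07% of long introns, against 2.87% and 1.71% of the introns of shorter genes. Outside coding genes the coverage was near that of long introns, at 2.05% and 1.19%.

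**Figure D5:**
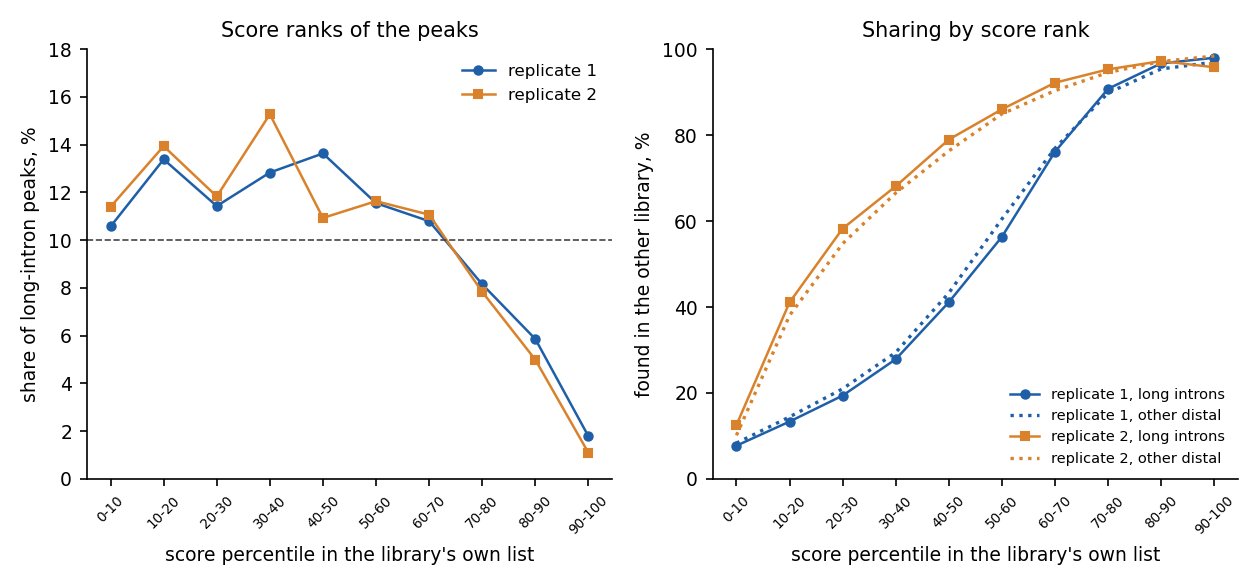
Left, share of long-intron peaks (vertical axis, %) in each 10% of the scores of their library (horizontal axis), where the dashed line marks 10%; right, share found in the other library (vertical axis, %) for long-intron peaks (solid) and other peaks over 1 kb from a TSS (dotted). The top 10% holds 1.78% and 1.09% of long-intron peaks, and sharing runs from 7.72% to 98.0% in replicate 1.

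A few genes differed between the libraries far more than the rest. Among the 322 genes with a mean of at least 20 peaks the median ratio of replicate 1 to replicate 2 was 1.52, and 20 had more in replicate 2. The highest ratios belonged to Pcdh15, a protocadherin of hair cells (43 and 4 peaks), Adgrl3, a latrophilin (46 and 10), Adarb2, an RNA-editing family member (50 and 11), and Kif26b, a kinesin (38 and 10). Among the 4 lowest were those of Pakap, an A-kinase anchoring protein gene (33 and 61), Nav2, a neuron navigator (104 and 173), and Cdh23 (43 and 62). In these last 3 genes between 35.5% (Cdh23) and 43.9% (Nav2) of the peaks of replicate 2 were found in replicate 1.

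Most of the excess of replicate 2 in these 3 genes lay in single stretches crowded with low-scoring peaks. In the densest 50 kb of Nav2 there were 8 peaks in replicate 1 and 46 in replicate 2, in that of Cdh23 11 and 31, in that of Slit3 7 and 37, in that of Pakap 6 and 35, in that of Tenm4 18 and 49 and in that of Fto 24 and 49. Windows of 25 kb in which the libraries differed by at least 15 peaks numbered 15 of 12198 in very long genes, 12 with more in replicate 2 and 3 with more in replicate 1. They held 129 (0.654%) and 355 (2.71%) of the peaks, with median score percentiles of 50.9 in replicate 1 and 5.58 in replicate 2. In the window of Tenm4 with 8 and 44 peaks, hotspots covered 7.88% of the sequence in replicate 1 and 48.4% in replicate 2, and the median percentile in replicate 2 was 2.84. The same kind of window occurred elsewhere on the autosomes, 94 with more in replicate 2 and 49 with more in replicate 1 of 98520, long genes included. What sets these stretches apart was not tested. The windows were defined after the data were seen, and genes they touch in replicate 2, among them Nav2, Pakap, Tenm4, Fto, Slit3, Cdh23, Fgfr2 and Gm20388, carry part of their density there.

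The DNA of the peaks was richer in G and C and poorer in repeats than the introns around it. Mean GC content was 48.7% in replicate 1 and 51.6% in replicate 2, against 40.8% over all 150 bp tiles of the same introns, and in peaks of the top 10% it was 56.9% and 62.0%. Repeats filled most of the sequence in 3.17% and 3.99% of peaks and in 21.5% of tiles. The E-box CAGCTG occurred in 16.1% and 18.3% of peaks and in 5.20% of tiles, and CAGATG, the E-box of Neurog and Neurod factors, in 18.4% and 18.1% against 11.3%. CAGCAGG, a Zic site, occurred in 8.34% and 10.2% against 2.79%, and CCCNNGGGA, an Ebf site, in 4.63% and 4.29% against 1.22%. These 4 motifs had similar frequencies in other peaks far from a TSS. In shorter introns and outside genes CAGCTG occurred in 16.4% and 17.5% and in 15.2% and 16.7%. CAGATG occurred in 17.4% and 17.0% and in 17.0% and 16.4%. CAGCAGG occurred in 9.39% and 10.6% and in 8.64% and 9.80%, and CCCNNGGGA in 4.81% and 4.68% and in 4.52% and 4.29%. The core of CTCF, AGGGGGCGC, was rare but had the highest ratio to tiles, at 0.456% and 0.588% against 0.0140%. The homeobox core TAATTA was less frequent in peaks than in tiles, at 4.72% and 2.95% against 6.22%. So was AGATAA, a site of GATA factors, at 6.68% and 5.04% against 10.8%. Tiles were not matched for GC content, and a match is no evidence that a factor was bound.

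Some motifs differed in frequency between long introns and other peaks far from a TSS. TGACAG occurred in 16.3% and 16.1% of long-intron peaks, in 13.7% and 13.8% of peaks in shorter introns and in 13.4% and 13.4% of those outside genes, a difference of the same direction in both libraries and larger than the spread between them (SD 0.192 over the long-intron shares). TGATTNAT, a homeobox site, occurred in 5.31% and 3.19% against 3.46% and 2.37% and against 4.22% and 2.76%, higher in long introns in both libraries, while the libraries differed from each other by more than the classes did. The CTCF core was less frequent in long introns than in shorter ones (1.02% and 1.21%) or outside genes (0.844% and 1.05%), in both libraries. GGGCGGG was less frequent too, at 2.27% and 3.21% against 3.54% and 4.64% in shorter introns. The classes of peaks were not matched for GC content. Its mean was 48.7% and 51.6% in long introns, 50.9% and 53.3% in shorter introns and 49.7% and 52.5% outside genes. The part of this difference in the motif frequencies was not tested.

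The strongest of the peaks differed from the rest in motifs and in annotated starts nearby. GGGCGGG occurred in 9.94% and 18.9% of those in the top 10% by score, against 2.27% and 3.21% of all long-intron peaks and 22.7% and 25.4% of peaks near a coding TSS. GTTGCCA, the core of Rfx proteins, occurred in 8.24% and 7.69% of the top 10%, against 3.35% and 3.23% of all and 2.16% and 2.15% near a coding TSS. The annotated start of a long non-coding RNA, of a non-coding transcript of a coding gene or of another gene lay within 500 bp of 9.66% and 14.0% of the top peaks and of 2.12% and 2.59% of the rest. Centres of 1.81% and 2.13% of the peaks lay in an exon of another gene.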

How the data were processed

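DNase-seq libraries of neural tube from mouse embryos at 11.5 days were used, 2 replicates of 1 group. Per the labels, regions are on mm10. The authors deposited, for each library separately, peaks of 150 bp with a score as a whole number, and hotspots with a −log10 q-value, of which only the positions of hotspots were used here. No source used here names the aligner, the caller or its threshold. Read counts are absent from the lists used, so depth is unknown and intervals that rest on it were not computed. Duplicate rows were removed, 45 in replicate 1 and 22 in replicate 2.

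Positions were compared with GENCODE vM21 and the GRCm38.p6 sequence (the same assembly as mm10), using Python 3.11.15, numpy 2.4.6 and scipy 1.17.1. Eligible intron was the gene span without its exons, without 1 kb to either side of coding TSSs and without assembly gaps. A promoter peak overlapped 500 bp to either side of a coding TSS of the gene. Peaks were shared when they overlapped by 1 bp. Scores became percentiles within a library, with ties at their mean rank. The scripts were tested on simulated data and recovered the planted counts in 61 of 61 genes.

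The peaks, the 12 lists of genes and the 21 motifs were chosen with earlier results of these data known, and none of them supports a test. Genes named are the 12 highest and 12 lowest by density, the 5 with the most peaks, the 5 longest, the 3 highest and lowest of each list and the 4 with the highest and lowest ratio between libraries; peaks named are the 8 strongest shared ones, 1 per gene, and the strongest of the 3 densest genes. Sequences on chromosome 18 are not shown, and 1 gene of these and the sequence of its peak are not reported here.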

Additional observations from a re-analysis of the deposited data

How the results depend on the processing

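Each main value was recomputed under alternatives, 71 values in all. Of these, 14 came from 1 library alone, where 12 cannot differ from the mean of 2 libraries by more than their SD, and 6 are shares in a hotspot of the same library, which stayed at 100%. Of the other 51, 36 moved by less than the spread between libraries or, for counts, by less than 1.5 times. Taking 1 library alone gave 13099 to 19729 peaks, 4.37 to 6.57 per 100 kb, 43.5% to 66.7% shared, percentiles of 39.6 to 40.4, 0.185% to 0.370% of genes without a peak and ratios of 0.683 to 0.778. The ratio to shorter genes passed 1 with sequence outside coding genes as the comparison (1.05) and, by an alternative added after the data were seen, at the GC content of shorter genes (1.12). Among the higher-scoring 50% of each list there were 6160 peaks, 2.05 per 100 kb, a median percentile of 33.1, 7.30% of genes without a peak (3.33% in replicate 1 and 11.3% in replicate 2) and a ratio of 0.607. With equal numbers of peaks the percentile was 37.98 and genes without a peak 0.647%. Over 5 kb from every TSS these were 38.6 and 0.462%. With genes of at least 500 kb there were 8962 peaks and 0% of genes without one, and with genes of at least 200 kb the percentile was 40.8 and genes without a peak 0.682%. Leaving out genes without a long CCDS transcript, or windows of uneven counts, both added after the data were seen, moved none of the values computed under them by more than the spread between libraries. No paired analysis was possible because there is 1 group. Peak calls at low scores depend on depth, which is unknown here.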
